A study of Mus musculus with 12 samples.

Results

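The genes described here are 41 genes of the cell division cycle, taken by exact gene symbol from the 47069 gene rows of one count table of mouse tibia. They were separated by role into 8 S phase genes (Mcm2 to Mcm7, Pcna and Rrm2), 9 replication control genes (Rrm1, Tyms, Gins2, Cdc6, Cdt1, Ccne1, Ccne2, E2f1 and E2f8) and 24 mitotic genes (the rest, among them Mki67, Top2a, Cdk1, Plk1 and the cyclins Ccna2, Ccnb1 and Ccnb2). All 41 were detected in all 12 mice and passed the filter on low counts in each comparison.

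The study asked what loss of Sost, which encodes the Wnt antagonist sclerostin, does in mice with severe dominant osteogenesis imperfecta, and 4 male mice per group, all 8 weeks old, gave 1 RNA library each from a tibia shaft whose marrow had been flushed out. Jrt;Sost-ko mice were Col1a1Jrt/+ Sost-/-, so they carried the dominant collagen mutation and no functional Sost allele, and their line went back to a single recombinant mouse, since Col1a1 and Sost lie close together on the same chromosome. Jrt;Sost-het mice were labelled Col1a1Jrt/+, carried the same collagen mutation and, by the breeding described in the study's methods, 1 Sost null allele, so there was no Jrt group with both Sost alleles intact. By the same methods both Jrt groups came from 1 colony, kept by crossing Jrt;Sost-ko with Jrt;Sost-het mice, so Jrt;Sost-het mice shared the descent from the recombinant mouse. WT mice (labelled WT,WT) had neither mutation. All groups were of mixed FVB and C57BL6 background, but WT mice came from a separate parallel colony and comparisons with WT therefore mix genotype with colony, which cannot be told apart. Mice are numbered 1 to 4 in each group only to name them, and the numbers pair nothing.

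A cell that commits to division first switches on E2F transcription factors, which drive the genes of DNA replication. The MCM proteins form the helicase that is loaded on origins by Cdc6 and Cdt1, Pcna is the clamp that holds the polymerases, and ribonucleotide reductase (Rrm1, Rrm2) and Tyms supply nucleotides. Later, in G2 and mitosis, another wave of genes is expressed, including Cdk1 and its B-type cyclins, the kinases Plk1, Aurka and Aurkb, the spindle motors Kif11, Kif20a and Kif23, kinetochore proteins such as Cenpe and Cenpf, and the checkpoint kinases Bub1 and Bub1b. In a bone shaft, dividing cells include osteoprogenitors and, wherever marrow remains, blood cell precursors, of which erythroblasts and neutrophil precursors divide rapidly, while osteocytes do not divide. In a bulk library, fewer cells of a type and less RNA per cell cannot be told apart.

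The labels and the tissue were checked first. Sost was at 27.97, 34.6, 70.4 and 26.8 CPM (counts scaled by library size) in Jrt;Sost-het mice 1 to 4 and at 50.7, 72.3, 62.2 and 28.53 CPM in WT mice 1 to 4. In the 4 Jrt;Sost-ko mice it was at 0.571, 1.28, 0.508 and 0.326 CPM, below every other mouse, with a log2 fold change of -5.87 (SE 0.49, edgeR adjusted p = 0.013) against Jrt;Sost-het. The libraries held 24366061 to 44418863 counts on genes, of which the 41 genes took 0.725% to 1.15%. All 8 osteoblast markers and all 5 osteocyte markers were detected in each mouse, with summed levels of 10600 to 33730 CPM and 260 to 886 CPM. The flushed shafts also held blood cell transcripts, with 12 erythroid markers summing to 15460 to 30010 CPM and 7 late neutrophil markers to 14050 to 27190 CPM. The libraries stood apart most in 10 skeletal muscle genes, whose sum ran from 27.2 CPM in Jrt;Sost-ko mouse 4 to 27750 CPM in WT mouse 4, and 6 epidermis genes summed to 117 CPM in WT mouse 3 and 557 CPM in WT mouse 4 against at most 2.65 CPM elsewhere.

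The promoters show how the classes differ in sequence. RefSeq (build GRCm38.p6) gave a window from 250 bases before to 50 bases after the start for 34 of the 41 genes, and none was at hand for Aurkb, Ccna2, Ccne2, Gins2, Kif20a, Mcm4 and Tpx2. Each window was searched on both strands for 3 kinds of short element: E2F-type letters (TTCCCGC and its variants with the letters TTGGCGC, with the letters TTCGCGC or with the letters TTGCCGC, which can overlap one another and a CCAAT box), the CHR element of late cell cycle genes (TTTGAA or its variant TTCGAA), and the CCAAT box (CCAAT). E2F-type letters were present in 5 of 7 S phase genes (71.4%), 4 of 7 replication control genes (57.1%) and 4 of 20 mitotic genes (20%), against 10.9% of all 27025 genes with a window. A CHR element stood in 16 of 20 mitotic genes (80.0%), 2 of 7 S phase genes (28.6%) and 1 of 7 replication control genes (14.3%), against 21.7% of all genes. CCAAT boxes were in 7 of 7 S phase genes and 18 of 20 mitotic genes (90.0%) but in 2 of 7 replication control genes (28.6%), with 41.1% of all genes holding one. Both CHR and CCAAT were present in 16 of 20 mitotic genes (80.0%) and in 9.65% of all genes. A gene with several windows was counted as holding an element if any of them did. These matches describe letters in a window and do not show that a factor binds there. Windows of a class were not all alike, and those of the S phase genes Mcm2 and Pcna held no E2F-type match. A pair of S phase windows and a pair of mitotic windows are printed as examples, 5′ to 3′ on the gene's strand, with the elements in capitals: Mcm5 at chr8:75109259-75109558 (plus strand), Mcm6 at chr1:128359656-128359955 (minus strand), Ccnb2 at chr9:70421505-70421804 (minus strand) and Cdk1 at chr10:69352863-69353162 (minus strand).
Mcm5: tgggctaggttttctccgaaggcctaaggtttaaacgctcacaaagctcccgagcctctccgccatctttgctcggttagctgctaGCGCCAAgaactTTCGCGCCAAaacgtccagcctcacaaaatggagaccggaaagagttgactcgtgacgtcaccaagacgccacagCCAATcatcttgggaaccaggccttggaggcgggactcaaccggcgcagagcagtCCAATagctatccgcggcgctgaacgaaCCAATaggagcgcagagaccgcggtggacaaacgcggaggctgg
Mcm6: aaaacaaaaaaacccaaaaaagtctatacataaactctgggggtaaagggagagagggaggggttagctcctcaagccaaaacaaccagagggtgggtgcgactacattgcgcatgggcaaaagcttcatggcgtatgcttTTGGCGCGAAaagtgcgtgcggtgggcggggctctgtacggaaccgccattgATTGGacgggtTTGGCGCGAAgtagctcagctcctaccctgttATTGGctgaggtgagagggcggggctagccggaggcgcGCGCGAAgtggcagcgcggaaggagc
Ccnb2: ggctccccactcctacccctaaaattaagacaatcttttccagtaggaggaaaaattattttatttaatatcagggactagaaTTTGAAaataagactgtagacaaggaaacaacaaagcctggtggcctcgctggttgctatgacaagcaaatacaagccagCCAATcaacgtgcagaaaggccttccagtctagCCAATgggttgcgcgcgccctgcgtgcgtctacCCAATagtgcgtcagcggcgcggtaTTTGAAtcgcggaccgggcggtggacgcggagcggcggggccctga
Cdk1: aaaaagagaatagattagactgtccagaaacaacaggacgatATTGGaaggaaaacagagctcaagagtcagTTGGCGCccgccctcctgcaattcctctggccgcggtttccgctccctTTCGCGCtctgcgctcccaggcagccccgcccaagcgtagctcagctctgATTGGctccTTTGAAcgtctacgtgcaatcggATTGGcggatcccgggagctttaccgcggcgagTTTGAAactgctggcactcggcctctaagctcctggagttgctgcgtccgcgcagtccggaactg
In Mcm5 the capitals are 3 E2F-type matches, of which the last overlaps the one before it, and 3 CCAAT boxes. Mcm6 had 5 E2F-type matches, with 2 overlapping pairs, and 2 CCAAT boxes read on the other strand as ATTGG. Ccnb2 had 3 CCAAT boxes and 2 CHR elements and no E2F-type match. Cdk1, the kinase that drives entry into mitosis, held all 3 kinds, with 2 E2F-type matches, 2 CHR elements and 3 CCAAT boxes.

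The 41 genes spanned a wide range of levels. Per kilobase of exon, averaged over the 12 mice, Mki67 (a chromosome surface protein of cycling cells) was highest at 186 ± 25.8 CPM per kb (SD, n = 12). Pcna followed at 160 ± 24.7 and Rrm2 at 157 ± 25.1 CPM per kb, and these 3 neighbours did not differ beyond the spread between mice. Ccnb2 was next at 99.2 ± 16.4 CPM per kb, then Top2a (the topoisomerase that untangles replicated chromosomes) at 84.8 ± 10.5, Ccna2 at 83.3 ± 13.2, Ube2c (which feeds the anaphase-promoting complex) at 71.7 ± 7.34, Mcm5 at 71.1 ± 11.6 and Mcm7 at 70.9 ± 11.8. Among the other helicase subunits, Mcm6 stood at 63.9 ± 9.53, Mcm3 at 62.3 ± 9.27, Mcm4 at 50.9 ± 7.59 and Mcm2 at 36.8 ± 5.92 CPM per kb. By this measure the replication control genes lay below the S phase genes. They ran from 30.7 ± 4.64 for Rrm1 and 30.6 ± 4.11 for E2f8, an E2F repressor, to 15.8 ± 2.10 for E2f1, 11.1 ± 1.63 for Tyms and 5.96 ± 1.08 CPM per kb for Gins2, the lowest of the 41. The length joins all annotated exons of a gene, so the order depends on it. Rrm1, with 11.01 kb, was at 338 CPM before division by length, above Mcm7 at 314 CPM. Several mitotic genes lay in the same range, among them Aurka at 30.0 ± 4.17, Cdk1 at 24.3 ± 3.78 and Cenpf at 15.2 ± 2.20 CPM per kb. Neighbours in this order were farther apart than the larger of their SDs between Rrm2 and Ccnb2, Cdc20 and Mcm4, Cenpe and Bub1, Cenpf and Tyms, and Tyms and Gins2.

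Some counts are uncertain because of overlapping genes. In the GENCODE M21 annotation (GRCm38) all 41 genes were protein coding and lay on 16 chromosomes, and the exons of 12 of them overlapped another gene. The overlap took 67.3% of the exon bases of Gins2 (with Gse1 on the opposite strand), 29.3% of Kif20a (with Cdc23), 22.8% of Ube2c (with Tnnc2, a muscle troponin gene), 17.4% of Ccne2 (with Ints8) and 12.5% of Ccna2 (with Exosc9). Smaller shares above 10% applied to Mcm7, E2f8 and Prc1. Reads over these bases cannot be assigned without knowing the strand setting of the counting. Pseudogenes named after Ccnb1, Ccnb2, Pcna and Tyms are annotated and could share reads with them.

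The same few mice were high or low for nearly every gene. Jrt;Sost-ko mouse 4, WT mouse 1 and WT mouse 2 were the 3 highest of the 12 mice for 41 of 41 genes. Jrt;Sost-ko mouse 4 was the single highest for 26 genes, WT mouse 1 for 8 and WT mouse 2 for 7. At the other end, WT mouse 4 was lowest for 38 genes, and Jrt;Sost-het mouse 4 was among the 3 lowest for 34. WT thus held mice from both ends of the order, and each Jrt group had 1 mouse apart from the other three in opposite directions, high in Jrt;Sost-ko and low in Jrt;Sost-het.

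**Figure D1:**
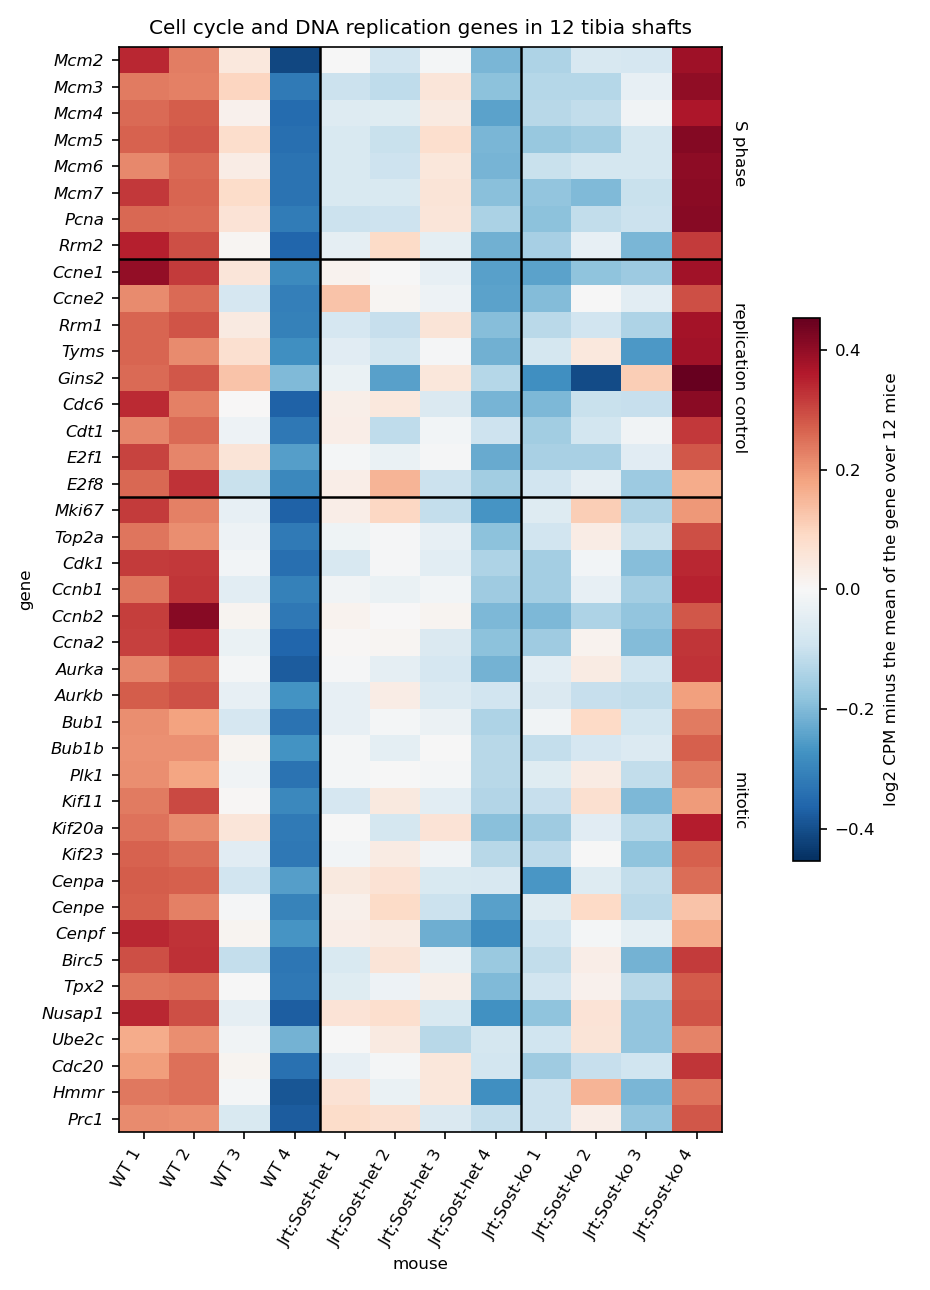
Level of each of the 41 genes (rows, grouped as S phase, replication control and mitotic) in the 12 mice (columns, grouped by genotype), as log2 CPM minus the gene's mean over all 12 mice (colour, red above and blue below). WT mouse 1, WT mouse 2 and Jrt;Sost-ko mouse 4 are red for all 41 genes, and WT mouse 4 is blue throughout.

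Among the S phase genes, Mcm5, a subunit of the replicative helicase, was at 338, 341, 296 and 221 CPM in WT mice 1 to 4, at 268, 262, 296 and 243 CPM in Jrt;Sost-het mice and at 249, 252, 266 and 375 CPM in Jrt;Sost-ko mice. The highest of all 12 values was that of Jrt;Sost-ko mouse 4 and the other 3 Jrt;Sost-ko mice lay within the range of the Jrt;Sost-het mice, so the groups overlapped. Mcm6, another helicase subunit, was at 344, 353, 302 and 234 CPM in WT, at 281, 277, 306 and 255 CPM in Jrt;Sost-het and at 276, 279, 279 and 392 CPM in Jrt;Sost-ko mice. The first 3 Jrt;Sost-ko values for Mcm6 lay close together and that of mouse 4 exceeded every WT value. Pcna, the polymerase clamp, was at 455, 453, 396 and 304 CPM in WT, at 355, 356, 394 and 344 CPM in Jrt;Sost-het and at 333, 352, 355 and 505 CPM in Jrt;Sost-ko mice. Rrm2, the regulated subunit of ribonucleotide reductase, was at 548, 526, 433 and 335 CPM in WT, at 418, 457, 417 and 370 CPM in Jrt;Sost-het and at 387, 419, 372 and 536 CPM in Jrt;Sost-ko mice. Unlike the MCM genes and Pcna, Rrm2 was highest in WT mouse 1. Mcm2 ranged from 190 to 321 CPM in WT, from 219 to 252 CPM in Jrt;Sost-het and from 230 to 330 CPM in Jrt;Sost-ko mice. The other helicase genes, Mcm3, Mcm4 and Mcm7, had the same 3 highest mice and the same lowest mouse, with group means of 244, 190 and 333 CPM in WT, 219, 172 and 296 CPM in Jrt;Sost-het and 239, 186 and 311 CPM in Jrt;Sost-ko mice.

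Among the replication control genes, Cdc6, which loads the helicase on origins, was at 142, 131, 112 and 86.9 CPM in WT mice 1 to 4, at 114, 116, 107 and 96.9 CPM in Jrt;Sost-het mice and at 97.4, 105, 104 and 149 CPM in Jrt;Sost-ko mice. Ccne1, the cyclin of the G1 to S transition, was at 88.7, 83.9, 70.1 and 55.2 CPM in WT, at 68.1, 67.2, 65.7 and 56.9 CPM in Jrt;Sost-het and at 57.0, 59.4, 60.1 and 87.6 CPM in Jrt;Sost-ko mice. For both genes 3 Jrt;Sost-ko mice lay within the range of the Jrt;Sost-het mice or close to it, and mouse 4 lay at the level of WT mice 1 and 2. E2f1, an activator of replication genes, ranged from 41.5 to 61.1 CPM in WT, from 42.2 to 49.2 CPM in Jrt;Sost-het and from 44.6 to 60.01 CPM in Jrt;Sost-ko mice. E2f8 ranged from 135 to 208 CPM in WT, from 148 to 184 CPM in Jrt;Sost-het and from 147 to 186 CPM in Jrt;Sost-ko mice. The ranges of the groups overlapped for each. Ccne2, the other E-type cyclin, had group means of 73.1 ± 12.99 CPM in WT, 72.2 ± 10.6 CPM in Jrt;Sost-ko and 69.9 ± 7.37 CPM in Jrt;Sost-het mice (SD, n = 4 each). Gins2, a subunit of the helicase complex, was at 28.7, 29.2, 26.3 and 20.96 CPM in WT, at 23.6, 20.3, 25.0 and 22.0 CPM in Jrt;Sost-het and at 19.9, 18.2, 26.02 and 32.9 CPM in Jrt;Sost-ko mice. It was the 1 gene whose lowest value of all 12 mice was in Jrt;Sost-ko mouse 2, and most of its exon bases are shared with another gene, as given above. Cdt1, Tyms and Rrm1 had means of 84.5, 70.6 and 356 CPM in WT, 79.0, 62.7 and 317 CPM in Jrt;Sost-het and 83.1, 68.6 and 340 CPM in Jrt;Sost-ko mice.

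Among the mitotic genes, Mki67 was at 2304, 2164, 1803 and 1433 CPM in WT mice 1 to 4, at 1886, 1975, 1715 and 1535 CPM in Jrt;Sost-het mice and at 1775, 2000, 1683 and 2118 CPM in Jrt;Sost-ko mice. Its highest and lowest values were both in WT, so the WT range enclosed both Jrt groups. Top2a was at 899, 878, 747 and 608 CPM in WT, at 749, 756, 740 and 667 CPM in Jrt;Sost-het and at 715, 778, 708 and 930 CPM in Jrt;Sost-ko mice. Cdk1 was at 147, 148, 117 and 93.5 CPM in WT, at 113, 118, 115 and 107 CPM in Jrt;Sost-het and at 106, 117, 104 and 150 CPM in Jrt;Sost-ko mice. Its Jrt;Sost-het values lay inside the range of both other groups. Plk1, the kinase of spindle assembly and mitotic exit, was at 120, 118, 103 and 82.4 CPM in WT, at 103, 104, 103 and 95.3 CPM in Jrt;Sost-het and at 100, 107, 96.1 and 122 CPM in Jrt;Sost-ko mice. Ccnb1, the main partner of Cdk1, ranged from 121 to 187 CPM in WT, from 134 to 148 CPM in Jrt;Sost-het and from 134 to 191 CPM in Jrt;Sost-ko mice. Aurkb, the kinase of the chromosomal passenger complex, ranged from 80.1 to 118 CPM in WT, from 91.2 to 99.0 CPM in Jrt;Sost-het and from 89.5 to 110 CPM in Jrt;Sost-ko mice. For Plk1, Ccnb1 and Aurkb as well, the groups overlapped and Jrt;Sost-het mice were the least spread.

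**Figure D2:**
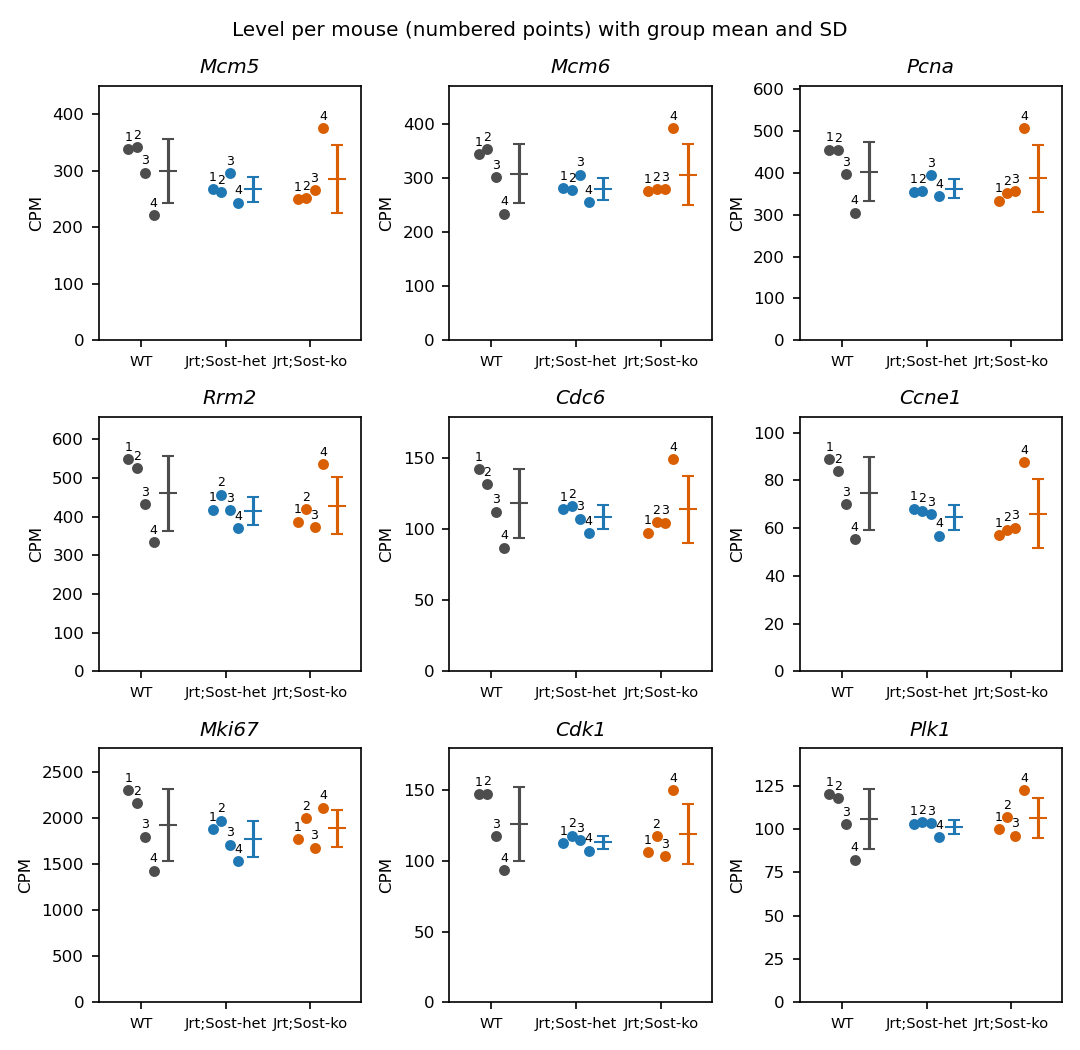
CPM (vertical axes, starting at 0) of 4 S phase genes (Mcm5, Mcm6, Pcna, Rrm2), 2 replication control genes (Cdc6, Ccne1) and 3 mitotic genes (Mki67, Cdk1, Plk1), with 1 numbered point per mouse and the mean and SD of the 4 mice beside them. In each panel mouse 4 is the lowest of the WT and of the Jrt;Sost-het mice and the highest of the Jrt;Sost-ko mice.

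The remaining mitotic genes are given by their group means (CPM, first WT, then Jrt;Sost-het and last Jrt;Sost-ko). For the other cyclins, Ccna2 was at 358, 323 and 339 and Ccnb2 at 164, 146 and 145 CPM. For the spindle motors and the microtubule proteins, Kif11 was at 287, 262 and 271, Tpx2 at 204, 188 and 199.9, Nusap1 at 190.2, 174 and 181, and Prc1, which bundles the central spindle, at 178, 176 and 179 CPM. Among centromere and kinetochore genes, Cenpa, the centromeric histone, was at 163, 154 and 152, Cenpe at 168, 155 and 162 and Cenpf at 253, 216 and 234 CPM. The checkpoint kinases Bub1 and Bub1b were at 69.1, 66.1 and 71.5 and at 149, 139 and 145 CPM. Cdc20 and Ube2c, which act with the anaphase-promoting complex, were at 112.5, 108 and 109.5 and at 192, 180.5 and 187 CPM, and Aurka was at 77.9, 71.2 and 78.9 CPM. Birc5, which encodes survivin, was at 141, 129 and 136, the spindle protein Hmmr at 112.5, 106 and 112, and the motors Kif20a and Kif23 at 115.5, 107 and 112 and at 128, 121 and 124 CPM.

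Loss of Sost in Jrt mice did not move any of the 41 genes past the test. Between the Jrt groups, 0 of 41 genes had an adjusted p under 0.05 (edgeR quasi-likelihood test, Benjamini-Hochberg over 16739 genes), against 0.00597% of all genes tested, which was Sost alone. None of the 41 had an unadjusted p under 0.05 (smallest 0.149), where 841 of all genes did, and DESeq2 called 0 of the 41 among 15 genes in all. limma-voom called 0 genes in all, and Sost too missed its threshold. For 0 of 41 genes did the 2 groups not overlap, against 3.2% of all genes. The estimates leaned upwards: 38 of 41 log2 fold changes were above 0, against 50.4% of all genes, with a median of 0.07 (0.001 over all genes) and a range from -0.025 for Cenpa to 0.15 for Aurka. This lean depended most on 1 mouse: without Jrt;Sost-ko mouse 4 the median was -0.053 and 6 of 41 were above 0. Without Jrt;Sost-het mouse 4 the median was 0.038. The fit by limma-voom, which gives each library a quality weight, left 18 of 41 above 0. The lowest and highest bounds of the 95% intervals over the 41 genes corresponded to ratios of 0.809 and 1.41, and all 41 intervals lay within 0.5 of 0 on the log2 scale.

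For the S phase genes the median log2 fold change of Jrt;Sost-ko over Jrt;Sost-het was 0.11. It was 0.13 (SE 0.12, adjusted p 0.904) for Mcm6, 0.11 (SE 0.12, adjusted p 0.904) for Mcm2, 0.10 (SE 0.13, adjusted p 0.923) for Mcm5, 0.09 (SE 0.13, adjusted p 0.922) for Pcna and 0.05 (SE 0.12, adjusted p 0.957) for Rrm2. For each of these genes the 95% interval included 0, and the difference in mean CPM was smaller than the SD of the Jrt;Sost-ko mice. For Mcm6, Mcm2 and Pcna it was larger than the SD of the Jrt;Sost-het mice. The replication control genes had a median of 0.07, with 0.07 (SE 0.13, adjusted p 0.941) for Cdc6, 0.06 (SE 0.10, adjusted p 0.935) for E2f1, 0.05 (SE 0.11, adjusted p 0.951) for Ccne2, 0.03 (SE 0.14, adjusted p 0.968) for Ccne1 and -0.01 (SE 0.09, adjusted p 0.982) for E2f8. The mitotic genes had a median of 0.07 as well. Among them the values were 0.15 (SE 0.09, adjusted p 0.901) for Aurka, 0.11 (SE 0.10, adjusted p 0.904) for Top2a, 0.09 (SE 0.11, adjusted p 0.914) for Mki67, 0.08 (SE 0.11, adjusted p 0.926) for Cdk1, 0.07 (SE 0.11, adjusted p 0.932) for Ccnb1, 0.07 (SE 0.08, adjusted p 0.906) for Plk1, 0.02 (SE 0.07, adjusted p 0.968) for Aurkb and -0.03 (SE 0.10, adjusted p 0.968) for Cenpa, all from edgeR. In the exact two-sided permutation test of log2 CPM, whose smallest possible p with 4 mice against 4 is 0.0286, the smallest p of the 41 genes was 0.229.

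Jrt;Sost-het mice lay below WT on average for each of the 41 genes, and the differences did not pass the test. Of 16775 genes, 0 were called (0%) and 359 had an unadjusted p under 0.05, of which 0 were among the 41 (smallest p 0.106). DESeq2 and limma-voom called 0 genes as well, and non-overlapping groups were found for 0 of 41 genes against 1.54% of all genes. The log2 fold change of Jrt;Sost-het over WT was above 0 for 0 of 41 genes, against 51.27% of all genes, with a median of -0.12 (0.004 over all genes). It ran from -0.22 (SE 0.14) for Cenpf to -0.009 (SE 0.12) for Prc1, and the class medians were -0.14 for S phase, -0.16 for replication control and -0.11 for mitotic genes. The S phase values were -0.16 (SE 0.13) for Mcm5, -0.14 (SE 0.14) for Mcm2, -0.14 (SE 0.12) for Pcna, -0.14 (SE 0.15) for Rrm2 and -0.13 (SE 0.12) for Mcm6. The replication control values were -0.20 (SE 0.14) for Ccne1, -0.16 (SE 0.11) for E2f1, -0.11 (SE 0.14) for Cdc6, -0.08 (SE 0.14) for E2f8 and -0.06 (SE 0.13) for Ccne2. Of the mitotic genes, Cdk1 was at -0.15 (SE 0.13), Ccnb1 at -0.12 (SE 0.12), Mki67 at -0.11 (SE 0.16), Aurkb at -0.11 (SE 0.12), Top2a at -0.10 (SE 0.12) and Plk1 at -0.05 (SE 0.11), and each adjusted p was 1. The count above 0 was 5 without WT mouse 1 and 7 without WT mouse 2 (medians -0.049 and -0.046), 1 without Jrt;Sost-het mouse 3 and 2 without Jrt;Sost-het mouse 4. The median moved to -0.24 without WT mouse 4, and it was -0.20 without mouse 4 of both groups, the mice with the most muscle transcripts, a setting chosen after seeing the data. Without WT mice 3 and 4, which held epidermis transcripts, it was -0.31. The 95% intervals over the 41 genes ran from ratios of 0.687 to 1.21, and 39 lay within 0.5 of 0 on the log2 scale. In marrow lists the fold change was above 0 for 0 of 12 erythroid, 0 of 6 early neutrophil and 0 of 7 late neutrophil markers. It was above 0 for 9 of 11 B cell progenitor and 4 of 5 megakaryocyte markers. The 41 genes moved together over the mice, so a count above 0 in any comparison is not 41 independent results.

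Jrt;Sost-ko and WT mice did not differ past the test in any of the 41 genes. Of 17155 genes 1 was called, again Sost (0.00583%), and 668 had an unadjusted p under 0.05, of which 0 were among the 41 (smallest p 0.345). Non-overlapping groups were found for 0 of 41 genes against 2.4% of all genes. The median log2 fold change of Jrt;Sost-ko over WT was -0.05 (-0.003 over all genes), with 5 of 41 above 0 against 49.07% of all genes, and the range was from -0.17 (SE 0.17) for Ccnb2 to 0.06 (SE 0.12) for Bub1. It was -0.10 (SE 0.17) for Rrm2, -0.06 (SE 0.17) for Mcm5, -0.05 (SE 0.17) for Pcna, -0.03 (SE 0.17) for Mcm2 and -0.003 (SE 0.16) for Mcm6. It was -0.17 (SE 0.18) for Ccne1, -0.10 (SE 0.14) for E2f1, -0.09 (SE 0.14) for E2f8, -0.05 (SE 0.18) for Cdc6 and -0.01 (SE 0.14) for Ccne2. It was -0.09 (SE 0.13) for Aurkb, -0.08 (SE 0.17) for Cdk1, -0.05 (SE 0.16) for Ccnb1 and -0.02 (SE 0.16) for Mki67, with an adjusted p of 0.9996 for all 41. Plk1 was at 0.013 (SE 0.12) and Top2a at 0.006 (SE 0.14), and both were below 0 under upper-quartile scaling and under scaling without muscle and blood cell genes, which left 2 of 41 above 0. The number above 0 rose to 28 without WT mouse 1 and to 32 without WT mouse 2, with medians of 0.022 and 0.019, to 21 without Jrt;Sost-ko mouse 1 (median 0.002), to 16 without Jrt;Sost-ko mouse 3 and to 11 without Jrt;Sost-ko mouse 2. It fell to 2 without WT mouse 3 and to 0 without WT mouse 4 or Jrt;Sost-ko mouse 4, with medians of -0.069, -0.16 and -0.17. Without WT mice 3 and 4, the libraries with epidermis transcripts, the median was -0.24 and 0 of 41 were above 0. Each group enters 2 of the 3 comparisons, which therefore share mice and are not independent.

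**Figure D3:**
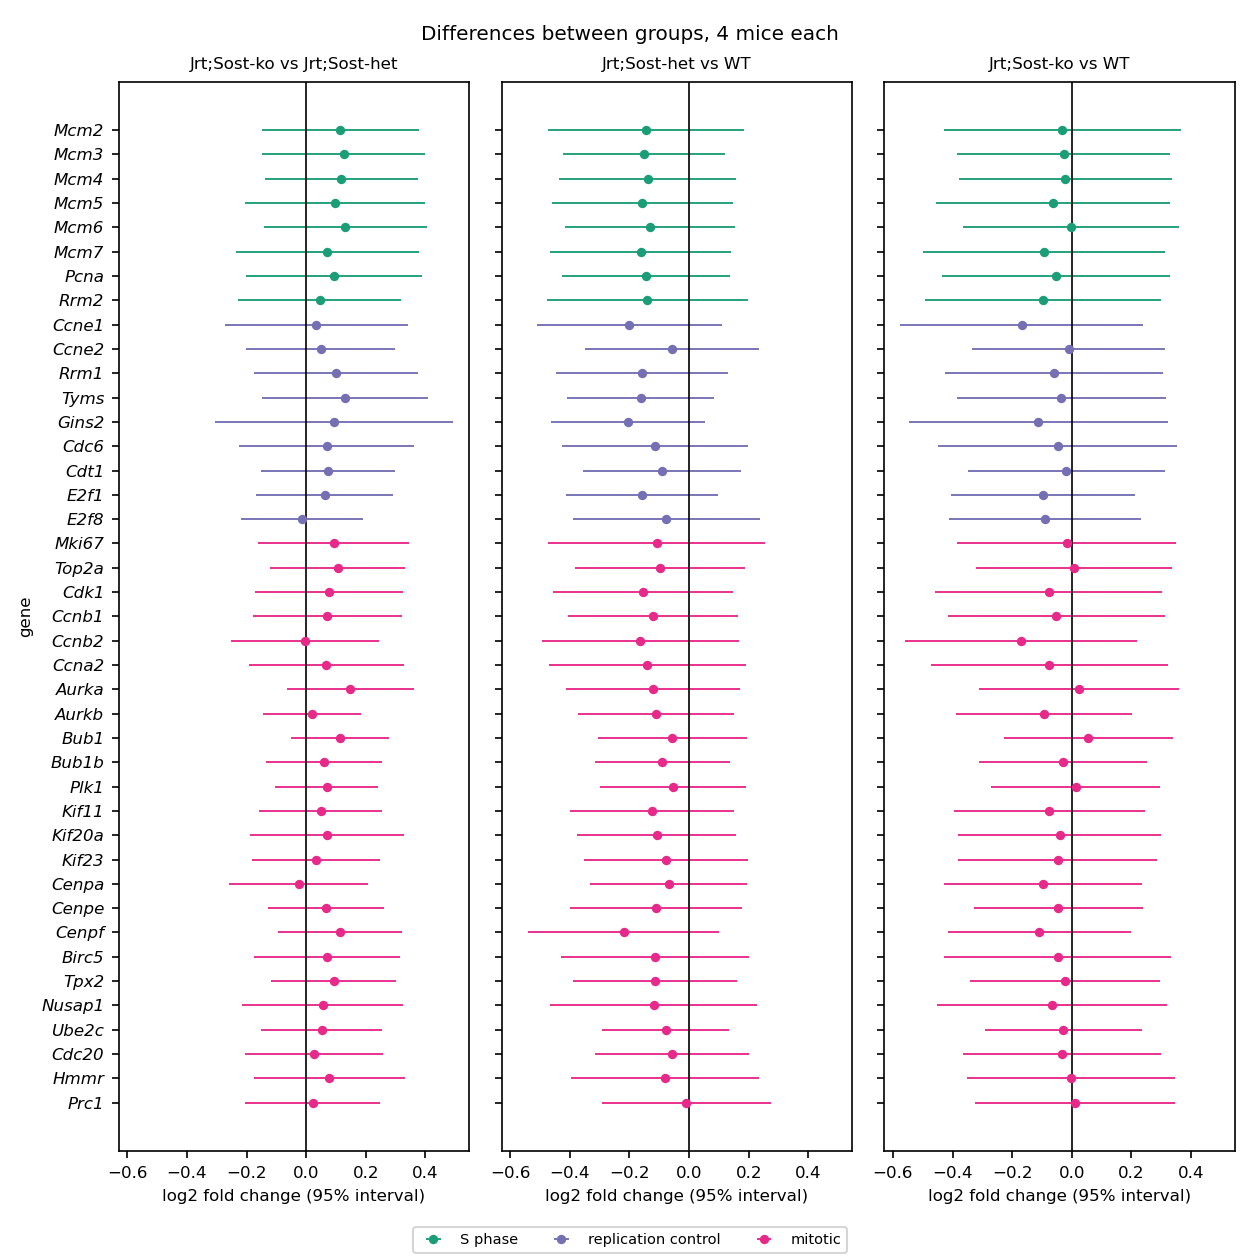
Log2 fold change (points) and 95% interval (lines) of each of the 41 genes in the 3 comparisons, from edgeR, with 4 mice per group and colours for the classes. The points lean to the right of 0 between the Jrt groups (38 of 41, but 6 of 41 without Jrt;Sost-ko mouse 4) and to the left in Jrt;Sost-het against WT (41 of 41). In Jrt;Sost-ko against WT 36 of 41 lie to the left, with a median of -0.047, but 32 of 41 lie to the right without WT mouse 2. Every interval in the 3 comparisons spans 0.

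Over the 12 mice and within WT, S phase and mitotic genes moved together more than apart. The mean log2 CPM of the 8 S phase genes minus that of the 24 mitotic genes was 0.76 ± 0.05 for the WT mice, 0.75 ± 0.11 for the Jrt;Sost-ko mice and 0.72 ± 0.07 for the Jrt;Sost-het mice (SD, n = 4 each). Over the 12 mice this difference spanned 0.25, from 0.62 in Jrt;Sost-ko mouse 2 to 0.87 in Jrt;Sost-ko mouse 4, while the mean over all 41 genes spanned 0.63, from 7.01 in WT mouse 4 to 7.64 in Jrt;Sost-ko mouse 4. Summed CPM of the S phase genes was 2881, 2832, 2448 and 1857 in WT mice 1 to 4, then 2259, 2273, 2414 and 2059 in the Jrt;Sost-het and 2126, 2191, 2206 and 3087 in the Jrt;Sost-ko mice. That of the mitotic genes was 7263, 7146, 5885 and 4761 in WT, then 6013, 6162, 5732 and 5216 in the Jrt;Sost-het and 5600, 6185, 5446 and 7113 in the Jrt;Sost-ko mice. The classes were not ordered alike within the Jrt groups. Among Jrt;Sost-het mice, mouse 3 was highest for 6 of 8 S phase genes and mouse 2 for 15 of 24 mitotic genes. Among Jrt;Sost-ko mice, mouse 1 was lowest for 5 of 8 S phase genes and mouse 3 for 17 of 24 mitotic genes.

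**Figure D4:**
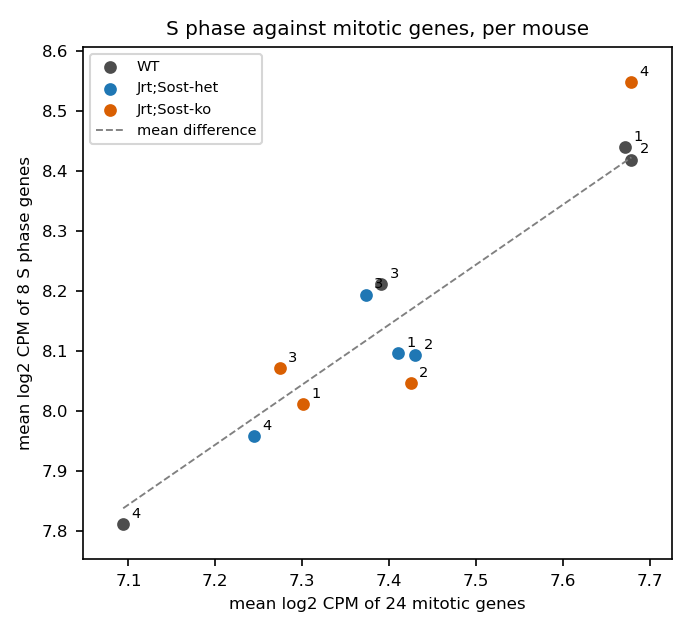
Mean log2 CPM of the 8 S phase genes (vertical axis) against that of the 24 mitotic genes (horizontal axis), with 1 numbered point per mouse, coloured by group, and a dashed line at the mean difference over the 12 mice. The mice lie along the line from WT mouse 4 at the lower left to WT mouse 1, WT mouse 2 and Jrt;Sost-ko mouse 4 at the upper right.

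The genes varied between mice more than a typical gene at 20 CPM or more, a level that each of the 41 exceeded on average. Over the 12 mice, the coefficient of variation of CPM had a median of 14.2% (10.2% to 18.1%) for the 41 genes, against 8.77% for the 8335 genes at that level. It was 15.7% for S phase, 14.8% for replication control and 13.1% for mitotic genes. Over all 17245 genes past the filter on low counts, at any level, the median was 13.9%, close to that of the 41.

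Mki67 was used as a reference for how closely the genes followed each other over the 12 mice, and 39 of the 40 relations passed a permutation test with 100000 permutations and Benjamini-Hochberg adjustment (for the 39, adjusted p at most 0.0058). Whether genes outside this set pass as often with Mki67 was not tested, so the count does not set these genes apart from others. Over the 40 relations, Pearson's r ranged from 0.451 to 0.994 with a median of 0.883, and Spearman's rho from 0.413 to 1.0 with a median of 0.853. With each mouse expressed relative to its group mean the median r was 0.891. Within WT alone r ran from 0.96 for E2f8 to 1.0 for Ccne1. Within Jrt;Sost-ko it ran from 0.266 for Gins2 to 0.999 for Hmmr. Within Jrt;Sost-het it ran from -0.281 for Gins2 to 1.0 for Cenpe. There it was low for Pcna (0.083), Cdt1 (0.143), Mcm3 (0.174), Rrm1 (0.269) and Mcm5 (0.295). It was high there for Cdc6 (0.99) and Rrm2 (0.937). These r within a group rest on few mice and were not tested. Leaving out the 2 mice with Mki67 farthest from its median, the median r was 0.808, with 34 of 40 relations passing. The closest was Cenpe, a kinetochore motor, with r = 0.994 (permutation p = 1e-05, the smallest these permutations can give, n = 12) and rho = 1.0 (permutation p = 1e-05). Nusap1 followed with r = 0.973, rho = 0.958 and a permutation p of 1e-05 for each, and then Top2a with r = 0.947, rho = 0.972 and the same permutation p for each. Mitotic genes had a median r with Mki67 of 0.927 and S phase genes of 0.791, with Rrm2 the closest S phase gene at r = 0.937 and rho = 0.951 (permutation p = 1e-05 for each). Mcm5 stood at r = 0.769 (permutation p = 0.0036, adjusted 0.0039) and rho = 0.72 (permutation p = 0.01, adjusted 0.013), and without the 2 farthest mice its r was 0.626 and no longer passed (adjusted permutation p = 0.059). The relation that did not pass was Gins2, with r = 0.451 and rho = 0.413 (permutation p = 0.14 and 0.19). All values of one mouse come from 1 library and share its depth and scaling factor.

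As a description over the same 12 libraries, the median Pearson's r was 0.974 for the 28 pairs of S phase genes, 0.934 for the 276 pairs of mitotic genes and 0.906 for the 192 pairs of an S phase with a mitotic gene. For the replication control genes it was 0.887 over the 36 pairs among themselves, below their 0.936 with S phase genes and 0.905 with mitotic genes. The lowest r of all 820 pairs was 0.441, between Gins2 and Cenpe.

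Mki67 and Mcm5, the 2 genes of the 41 that were set against marker lists of cell types, moved with some blood cell lists and not with others. Mki67 and the mean log2 CPM of 12 erythroid markers (among them Klf1 and Alas2) had r = 0.979 (permutation p = 1e-05, adjusted 0.00024) and rho = 0.993 (permutation p = 1e-05) over the 12 mice, r = 0.967 without the 2 farthest mice and r = 0.979 relative to group means. The erythroid sum was 30010, 26920, 20390 and 16710 CPM in WT mice 1 to 4, 23270, 23320, 19770 and 15460 CPM in Jrt;Sost-het mice and 21130, 24370, 16550 and 25020 CPM in Jrt;Sost-ko mice, and none of the 12 markers was at 0 in any mouse. The order of mice by this sum was close to their order by Mki67. Mcm5 followed the erythroid list less closely, with r = 0.675 (permutation p = 0.017, adjusted 0.038) and rho = 0.678 (permutation p = 0.018), and r fell to 0.48 without the 2 farthest mice. The largest positive r of Mcm5 was with 5 megakaryocyte markers, at 0.784 (permutation p = 0.0019, adjusted 0.0094) and rho = 0.715 (permutation p = 0.011), with r = 0.652 without the 2 farthest mice. Mki67 had r = 0.745 (permutation p = 0.0054, adjusted 0.019) and rho = 0.644 (permutation p = 0.027, adjusted 0.059) with the same list, and r = 0.509 without the 2 farthest mice. Whether r differs between Mki67 and Mcm5 was not tested.

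Skeletal muscle and endothelial lists went the other way for both genes. Skeletal muscle genes had r = -0.741 (permutation p = 0.0042, adjusted 0.017) and rho = -0.867 (permutation p = 0.00051) with Mki67, and r was -0.873 without the 2 farthest mice. With Mcm5 they had r = -0.792 (permutation p = 0.0014, adjusted 0.0094) and rho = -0.629 (permutation p = 0.033, adjusted 0.06), and r weakened to -0.466 without the 2 farthest mice. Endothelial genes had r = -0.836 (permutation p = 0.0005, adjusted 0.006) and rho = -0.844 (permutation p = 0.00093) with Mki67 and r = -0.786 (permutation p = 0.0017, adjusted 0.0094) and rho = -0.697 (permutation p = 0.014) with Mcm5, with r = -0.88 and -0.74 without the 2 farthest mice. Osteoblast genes had r = -0.736 (permutation p = 0.0065, adjusted 0.02) and rho = -0.685 (permutation p = 0.017) with Mcm5 and r = -0.542 (permutation p = 0.068, adjusted 0.1) and rho = -0.448 (permutation p = 0.14) with Mki67, with r = -0.682 and -0.598 without the 2 farthest mice. Osteocyte genes had r = -0.635 (permutation p = 0.026, adjusted 0.048) and rho = -0.636 (permutation p = 0.03, adjusted 0.06) with Mcm5 and r = -0.214 (permutation p = 0.5, adjusted 0.55) with Mki67. The osteoclast, chondrocyte and epidermis lists passed with neither gene, with r from -0.555 to -0.32. Among the marrow lists, B cell progenitor genes, whose summed level ran from 709 to 1047 CPM, had r = -0.203 with Mki67 and r = 0.191 with Mcm5 (permutation p = 0.53 and 0.55), with rho of -0.301 and 0.175 (permutation p = 0.34 and 0.59). In all 24 relations were computed, Mki67 and Mcm5 against 12 lists, all added after the values were seen, and 13 passed after adjustment of Pearson's r. The r of Mki67 with late neutrophil genes was 0.702 and fell to 0.497 without the 2 farthest mice, and with early neutrophil genes it was 0.665 and 0.827 (adjusted permutation p = 0.029 and 0.04, with rho = 0.685 and an adjusted permutation p of 0.044 for both). Mcm5 had r = 0.684 with late neutrophil genes (adjusted permutation p = 0.034, rho = 0.685, r = 0.617 without the 2 farthest mice), and its r of 0.541 with early neutrophil genes did not pass (adjusted permutation p = 0.1, rho = 0.462). CPM of one list falls when another takes more of the library, and the part of marrow, muscle or endothelial content in the differences between mice was not tested.

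**Figure D5:**
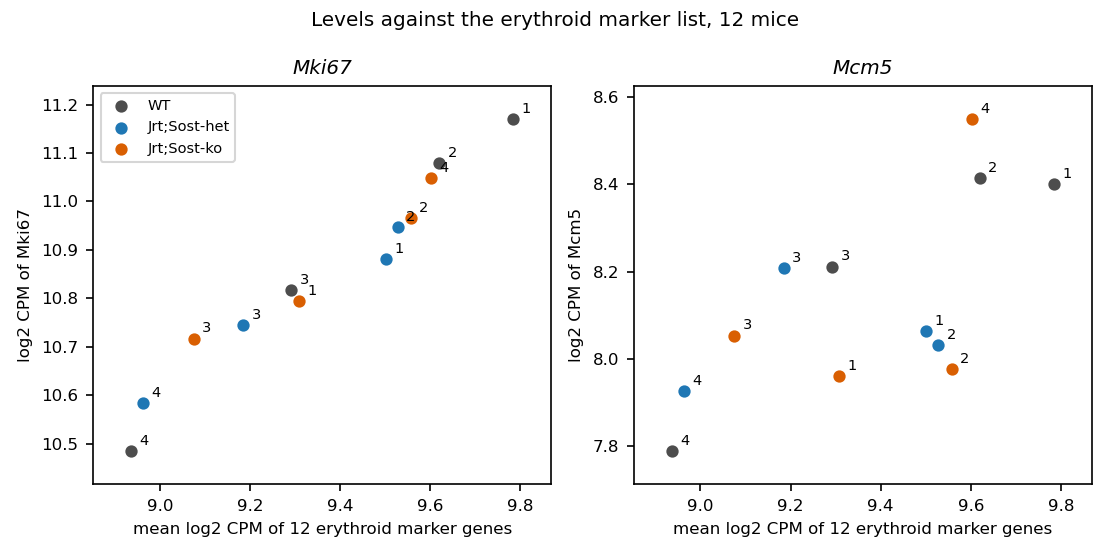
Log2 CPM of Mki67 (left) and Mcm5 (right) against the mean log2 CPM of 12 erythroid marker genes, with 1 numbered point per mouse, coloured by group. Mki67 lies close to a line (r = 0.979), while Mcm5 is more scattered (r = 0.675), with Jrt;Sost-ko mouse 4 highest.

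Other genes of the same pathways were counted in the same way. Between the Jrt groups 0 genes of 5 further lists were called, against 0.00597% of all genes, and the log2 fold change of Jrt;Sost-ko over Jrt;Sost-het was above 0 for 33 of 36 other replication genes (median 0.06), 26 of 32 other mitotic genes (median 0.03), 8 of 9 G1 cyclins and kinases (median 0.11), 12 of 17 E2F, RB and mitotic transcription factor genes (median 0.05) and 6 of 12 cell cycle inhibitors (median 0.006), against 50.4% of all genes. Here too Jrt;Sost-ko mouse 4 stood apart: the other replication genes summed to 3181 CPM in it, against 2361 to 2449 CPM in the other Jrt;Sost-ko mice and 2368 to 2625 CPM in Jrt;Sost-het mice, and the other mitotic genes to 4405 CPM, against 3408 to 3646 and 3325 to 3818 CPM. Between Jrt;Sost-het and WT mice it was above 0 for 0 of 36, 1 of 32, 0 of 9, 2 of 17 and 6 of 12 genes of these lists, against 51.27% of all genes, and 0 were called. Between Jrt;Sost-ko and WT mice it was above 0 for 6 of 36, 1 of 32, 4 of 9, 3 of 17 and 6 of 12 genes, against 49.07% of all genes, and 0 were called. The extremes between the Jrt groups were Orc1, an origin recognition subunit, at 0.21 (SE 0.16) and Pole, the leading strand polymerase, at -0.05 (SE 0.08) among replication genes, and Spc25 at 0.15 (SE 0.12) and Ska1 at -0.22 (SE 0.10), both of the kinetochore, among mitotic genes. Cdkn1a, which encodes the p21 inhibitor, was at 0.22 (SE 0.14) and Cdkn1c, which encodes p57, at -0.35 (SE 0.20).

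Of these 5 lists, the G1 genes had the largest single estimate. Myc, a transcription factor that promotes entry into the cycle, was at 55.9 ± 11.5 CPM in Jrt;Sost-ko, 40.97 ± 2.59 CPM in Jrt;Sost-het and 44.3 ± 2.42 CPM in WT mice (SD, n = 4 each). Its log2 fold change of Jrt;Sost-ko over Jrt;Sost-het was 0.45 (SE 0.14), with an unadjusted p of 0.00973 and an adjusted p of 0.901 in edgeR's quasi-likelihood test. Ccnd2, a D-type cyclin, was at 102 ± 16.9 CPM in Jrt;Sost-ko, 81.3 ± 6.33 CPM in Jrt;Sost-het and 82.6 ± 11.2 CPM in WT mice, a log2 fold change of 0.33 (SE 0.12, adjusted p = 0.901) in the first comparison. Cdk6, the kinase it activates, was at 123.5 ± 4.02 CPM in Jrt;Sost-ko, 110.5 ± 7.16 CPM in Jrt;Sost-het and 126 ± 15.7 CPM in WT mice, and was the 1 gene of the 9 whose Jrt;Sost-ko and Jrt;Sost-het values did not overlap (log2 fold change 0.16, SE 0.06, adjusted p = 0.901), where 3.2% of all genes did not. No other gene of the 5 lists had groups that did not overlap in this comparison. These 3 were the genes of the list with an unadjusted p under 0.05 and were singled out after their values were seen, and none passed the test. Ccnd1, the D-type cyclin known as a Wnt target, was at 29.5 ± 8.82 CPM in WT, 29.1 ± 3.06 CPM in Jrt;Sost-ko and 28.2 ± 3.67 CPM in Jrt;Sost-het mice, with a log2 fold change of 0.05 (SE 0.11, adjusted p = 0.951) between the Jrt groups.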

How the data were processed

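RNA from 12 flushed tibia shafts was enriched for poly(A) transcripts, per the labels, and sequenced as paired ends on a NovaSeq by the authors, per the study's methods. The submitters' processing notes name bcl2fastq 2.20, STAR, Cufflinks, Cuffdiff, DESeq and the build GRCm38 (mm10), without roles. The values used are raw counts per gene as deposited by the authors in 1 table of all mice; the tool, annotation and strand setting behind these counts are not given in the sources used here. Single-mouse files and the authors' comparison tables, which hold fold changes and p-values, were not used.

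Each pair of groups was fitted separately with edgeR 4.0.16 (R 4.3.3): filterByExpr, TMM scaling and the quasi-likelihood test, two-sided, with Benjamini-Hochberg adjustment over all genes tested and a threshold of 0.05. SE was the log2 fold change divided by the square root of F, and 95% intervals used the t quantile. CPM used TMM-scaled library sizes and log2 CPM a prior count of 2. Exact two-sided permutation tests compared 4 mice with 4, and correlations used 100000 permutations (Python 3.11.15, numpy 2.4.6, scipy 1.17.1). Alternatives used DESeq2 1.42.0, limma-voom (limma 3.58.1), other scalings, filters and samples. Libraries held 24366061 to 44418863 counts, and no pair of replicates agreed within sampling noise. Each library is a separate mouse. The labels give no batch.

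The 41 genes and the other lists were chosen with earlier results of these data known. Named with a fold change were 16 fixed genes and, in each comparison, those with the largest and smallest fold change. Of further lists, the genes with the largest and smallest fold change in a comparison were named, and others are said to be chosen after their values were seen. Gene models came from GENCODE M21 and promoters from RefSeq (GRCm38.p6). Scripts were tested on simulated data.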

Additional observations from a re-analysis of the deposited data

Results flagged for a closer look

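In 20 of 135 groups of 4 values examined (the CPM of each of the 41 genes, and sums over gene classes and over all of them), 1 mouse stood so far from the nearest other mouse of its group that the gap took up most of the group's range, where chance gives about 6.8. These values are not independent, since the genes of 1 mouse come from 1 library. How often a mouse stands apart in this way among all other genes was not tested, so the 20 do not set these genes apart from others. The mouse was Jrt;Sost-ko mouse 4, the highest of its group, in 15 of the 20, and the gap as a share of the range was 0.887 for Ccnb2, 0.896 for Ccne1, 0.85 for Aurkb, 0.891 for Bub1b, 0.872 for Cdc20, 0.894 for Mcm2, 0.849 for Mcm3, 0.869 for Mcm5, 0.968 for Mcm6, 0.863 for Mcm7, 0.874 for Pcna, 0.913 for Rrm1, 0.86 for Cdc6, 0.917 for the summed S phase genes and 0.885 for the summed replication control genes. It was Jrt;Sost-het mouse 4, the lowest of its group, in the other 5, with a share of 0.855 for Ccnb1, 0.932 for Ccnb2, 0.929 for Plk1, 0.881 for E2f1 and 0.909 for the summed replication control genes. No WT value stood apart in this way. Jrt;Sost-ko mouse 4 had the lowest sum of skeletal muscle genes of all 12 mice, 27.2 CPM, and Jrt;Sost-het mouse 4 the highest of its group, 26090 CPM, and the part of muscle in these values was not tested.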

How the results depend on the processing

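None of the 41 genes was called under any of 54 alternatives, which were other scalings, filters and tools, all 12 mice in a single fit, and mice left out singly or in pairs, and the smallest adjusted p of a named gene under them was 0.114. The number of all genes called was 1 between the Jrt groups but 15 with DESeq2, 0 with limma-voom or a robust spread and 0 to 3 with 1 mouse left out. In Jrt;Sost-ko against WT it was 1, but 14 with DESeq2, 2 with limma-voom or no filter and 0 to 2 with 1 mouse left out. Sost kept its direction throughout and missed the threshold under 10 alternatives. The log2 fold changes of several named genes changed sign. Limma-voom with quality weights gave -0.003 for Cdk1, -0.012 for Ccnb1, -0.094 for Ccne1, -0.036 for Ccne2, -0.032 for Aurkb, -0.018 for Mcm5, -0.014 for Pcna, -0.04 for Rrm2, -0.056 for Cdc6 and -0.03 for E2f1 in the comparison of the Jrt groups. Upper-quartile scaling gave -0.008 for Top2a and -0.001 for Plk1 in Jrt;Sost-ko against WT. Scaling without muscle and blood cell genes gave -0.009 for Top2a and -0.002 for Plk1 in Jrt;Sost-ko against WT. Limma-voom with quality weights gave -0.053 for Top2a and -0.033 for Plk1 in Jrt;Sost-ko against WT. No filter gave -0.007 for Top2a in Jrt;Sost-ko against WT. A filter of at least 10 counts in every mouse gave 0 for Top2a in Jrt;Sost-ko against WT. In Jrt;Sost-ko against WT without WT mice 3 and 4, the values were -0.177 for Top2a, -0.13 for Bub1 and -0.157 for Plk1. With 1 mouse left out, the comparison of the Jrt groups ranged from -0.057 to 0.139 for Cdk1, -0.065 to 0.124 for Ccnb1, -0.138 to 0.097 for Ccne1, -0.059 to 0.112 for Ccne2, -0.062 to 0.049 for Aurkb, -0.011 to 0.114 for Plk1, -0.14 to 0.043 for Cenpa, -0.027 to 0.168 for Mcm2, -0.069 to 0.154 for Mcm5, -0.015 to 0.177 for Mcm6, -0.068 to 0.157 for Pcna, -0.086 to 0.108 for Rrm2, -0.093 to 0.135 for Cdc6, -0.053 to 0.105 for E2f1 and -0.091 to 0.045 for E2f8. With 1 mouse left out, Jrt;Sost-het against WT ranged from -0.162 to 0.025 for Ccne2, -0.163 to 0.01 for Plk1, -0.125 to 0.065 for Prc1 and -0.186 to 0.023 for E2f8. With 1 mouse left out, Jrt;Sost-ko against WT ranged from -0.136 to 0.076 for Mki67, -0.098 to 0.075 for Top2a, -0.208 to 0.006 for Cdk1, -0.183 to 0.043 for Ccnb1, -0.113 to 0.071 for Ccne2, -0.045 to 0.125 for Bub1, -0.09 to 0.077 for Plk1, -0.169 to 0.064 for Mcm2, -0.223 to 0.008 for Mcm5, -0.144 to 0.07 for Mcm6, -0.209 to 0.012 for Pcna, -0.204 to 0.049 for Cdc6 and -0.195 to 0.007 for E2f8. Differences inside the 95% intervals given above are not excluded by these data. The cause of these shifts was not tested.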
